A study of Mus musculus with 16 samples.

Results

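Chromatin accessibility around 8 genes of the B cell receptor signaling pathway, Cd22, Fcgr2b, Lyn, Btk, Blnk, Bank1, Plcg2 and Prkcb, is described here peak by peak. A peak of the deposited count table belonged to a gene when that gene had the protein-coding mm10 RefSeq span nearest to the peak middle, at most 50 kb away. By this rule 150 of the 82188 peaks belonged to the 8 genes, with 8 peaks at Cd22, 11 at Fcgr2b, 21 at Lyn, 8 at Btk, 15 at Blnk, 30 at Bank1, 23 at Plcg2 and 34 at Prkcb. All 150 passed the filter on low counts, and 0 of them lay inside the span of another gene. The data are Omni-ATAC libraries, in which a transposase inserts adapters into open chromatin, from spleens of C57BL/6 mice aged 8 to 10 weeks. The 4 groups, with 4 libraries each, are Smarca4+/- cells labelled CC (HET CC), Smarca4+/+ cells labelled CC (WT CC), Smarca4+/- cells labelled CB (HET CB) and Smarca4+/+ cells labelled CB (WT CB). CC and CB are read here as centrocytes and centroblasts, the light zone and dark zone B cells of the germinal center, and no sort gate is stated in the labels. The Smarca4 product BRG1 is a motor subunit of BAF, a complex that moves nucleosomes, and the study compares cells with 1 and with 2 copies of the gene. The labels name neither the deleted part of the gene nor the cell type in which it was deleted, and they do not state that each replicate is a separate animal. The p-values therefore measure the spread between libraries, which may be technical.

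The B cell receptor senses antigen and is at the same time the receptor through which a germinal center B cell is tested for affinity. On engagement the Src family kinase Lyn phosphorylates the receptor chains, and Btk, brought to the membrane, activates the phospholipase Plcg2 on the scaffold protein Blnk; Plcg2 then releases calcium and activates the protein kinase C isoform Prkcb, which signals to NF-kB. The adaptor Bank1 links Lyn to calcium release, while Cd22, a sialic acid binding receptor, and Fcgr2b, the inhibitory receptor for IgG, recruit phosphatases that end the signal, and Lyn also phosphorylates these inhibitory receptors.

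Sequence upstream of the 5′ end, from RefSeq (GRCm38.p6, the assembly that mm10 denotes), is shown for 4 genes, chosen by the calls at their promoter peaks. Those of Blnk and Bank1 were not called between CC and CB in either genotype, whereas those of Prkcb and Fcgr2b were lower in CC in both. The promoters were not tested against each other, and the Prkcb calls were lost in some of the alternatives given below. Of 10 motifs searched on both strands in the 250 bases upstream, the octamer ATTTGCAT, bound by Oct factors, was found at Blnk, 123 to 130 bases before the 5′ end, and at Prkcb, 63 to 70 bases before it and as ATGCAAAT; it occurs in 1.6% of 32851 RefSeq promoters of the same length. The ETS-IRF composite, a run of 10 letters bound by PU.1 with IRF factors, was found at Fcgr2b (26 to 35 bases before the 5′ end) and at Bank1 (57 to 66 bases, within the stretch not shown) and occurs in 0.594% of promoters. The E box CAGGTG was found at Cd22, Blnk, Plcg2 and Bank1 (17.2% of promoters), the GC box GGGCGG at Plcg2 and Prkcb (32.7%) and CCAAT at Blnk (33.8%). ETS (CCGGAAGT), PU.1 (GAGGAAGT), AP-1 (TGACTCA), NF-kB (a run of 10 letters) and CRE (TGACGTCA) letters, in 2.88%, 2.44%, 4.46%, 0.14% and 1.55% of promoters, matched in 0 of the 7 genes with a promoter entry. A match is a run of letters and not a measured binding site. Capitals mark the motif matches, which do not overlap each other, and each sequence runs 5′ to 3′ on the strand of its gene.
Blnk, chr19:40994222-40994471, minus strand: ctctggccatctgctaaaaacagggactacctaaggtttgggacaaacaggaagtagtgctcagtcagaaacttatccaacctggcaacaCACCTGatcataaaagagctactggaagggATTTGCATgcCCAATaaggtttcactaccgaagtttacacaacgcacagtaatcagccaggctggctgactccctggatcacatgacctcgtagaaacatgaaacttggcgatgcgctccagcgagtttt
Bank1, chr3:136326142-136326316, minus strand: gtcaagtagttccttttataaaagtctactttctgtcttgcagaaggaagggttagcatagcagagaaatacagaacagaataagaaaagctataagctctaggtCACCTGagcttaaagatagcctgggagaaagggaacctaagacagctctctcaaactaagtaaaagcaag
Prkcb, chr7:122288875-122289103, plus strand: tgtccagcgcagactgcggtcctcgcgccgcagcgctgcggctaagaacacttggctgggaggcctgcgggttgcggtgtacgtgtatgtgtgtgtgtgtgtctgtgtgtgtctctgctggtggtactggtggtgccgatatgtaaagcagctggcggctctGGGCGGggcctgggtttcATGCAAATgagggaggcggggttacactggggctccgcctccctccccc
Fcgr2b, chr1:170976072-170976321, minus strand: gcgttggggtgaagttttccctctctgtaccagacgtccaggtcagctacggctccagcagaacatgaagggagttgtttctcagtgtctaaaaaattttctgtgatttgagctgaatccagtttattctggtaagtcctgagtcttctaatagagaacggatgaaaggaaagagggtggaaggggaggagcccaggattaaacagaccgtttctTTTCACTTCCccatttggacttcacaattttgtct
The octamer and the ETS-IRF composite each stand in 1 promoter of either kind. The GC box stands in Plcg2 and Prkcb, whose promoter peaks were both lower in CC, and CCAAT in Blnk.

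Depth differed between the cell populations more than between genotypes. Library totals were 5310327 to 7474760 counts in HET CC, 3494356 to 3750936 in WT CC, 38716281 to 51011923 in HET CB and 31696941 to 38798802 in WT CB. The median count per peak of the 8 genes was 51.5 to 76 in HET CC, 30.5 to 36.5 in WT CC, 516.5 to 674 in HET CB and 419 to 503 in WT CB, so the CC values carry the larger counting error. Pearson correlations of the libraries within a group were 0.92 to 0.944, 0.895 to 0.901, 0.991 to 0.994 and 0.988 to 0.992 in the same order of groups. Smarca4 itself, by its summed peaks, had a log2 change of HET against WT of -0.09 in CC and -0.10 in CB, and neither was called (edgeR quasi-likelihood test, adjusted p = 0.375 and 0.413); since the deleted part is not named, these peaks do not test the genotype.

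Summed over their peaks, all 8 genes had lower accessibility in WT CC than in WT CB. The largest decreases were at Bank1 (log2 -0.53, SE 0.044, edgeR quasi-likelihood test with Benjamini-Hochberg adjustment over all genes, adjusted p = 4.8e-13), Fcgr2b (-0.52, SE 0.0599, adjusted p = 1.13e-09) and Plcg2 (-0.49, SE 0.0433, adjusted p = 2.53e-12). The smallest were at Cd22 (-0.22) and Lyn (-0.13). In the same comparison 31.7% of all 15075 gene sums were called lower and 31.6% higher. CC libraries lay wholly below CB libraries at 8 of the 8 genes in WT (27.1% of all gene sums) and at 7 in HET (28.8%). In WT, the median log2 change of all gene sums was -0.009. In HET libraries 7 of the 8 genes were lower in CC, against 31.7% of all gene sums lower and 31.1% higher. The largest HET decreases were at Bank1 (-0.46, adjusted p = 3.75e-12), Fcgr2b (-0.42, adjusted p = 2.03e-08), Prkcb (-0.41, adjusted p = 9e-12) and Plcg2 (-0.40, adjusted p = 6.95e-11, edgeR quasi-likelihood test). Cd22 was not called (-0.08, 95% interval -0.196 to 0.034, adjusted p = 0.215). Values are CPM, the count relative to the library total scaled by its TMM factor, a call is an adjusted p below 0.05, and SE is the standard error of the fitted log2 change. A bulk library cannot tell fewer cells with an open site from less opening per cell.

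**Figure D1:**
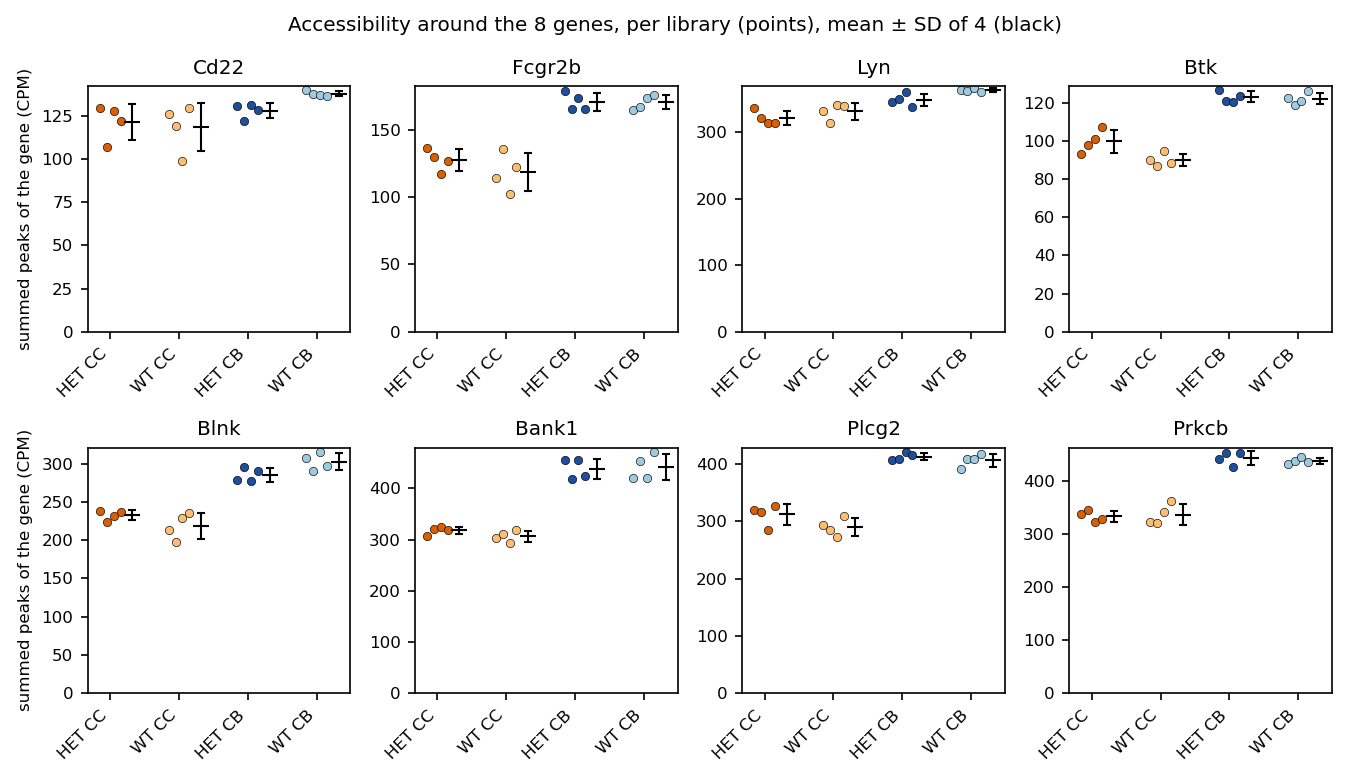
Summed accessibility around each of the 8 genes (CPM, vertical axis from 0) in the 4 libraries of HET CC, WT CC, HET CB and WT CB, with points for libraries and black bars for the mean ± SD. The CC libraries lie below the CB libraries of their genotype at every gene except Cd22 in HET, and the gap is smallest at Lyn and Cd22.

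Peak by peak the decrease was broad, and a small set of peaks went the other way. In WT, 76 of the 150 peaks (50.7%) were lower in CC than in CB and 11 (7.33%) were higher, against 27.7% lower and 30.2% higher among all peaks (57.9% called in either direction). In HET, 81 (54%) were lower and 10 (6.67%) higher, against 28.1% lower and 30.8% higher among all peaks (58.8% in either direction). The median log2 change of the 150 peaks was -0.381 in WT and -0.327 in HET, beside -0.007 and 0.002 for all peaks, and single peaks ran from -1.66 to 2.30 in WT and from -1.49 to 1.60 in HET. The 2 genotypes share no library, and 68 peaks were lower and 9 higher in CC in both, with 0 called in opposite directions. These 68 are 89.5% of the WT and 84% of the HET decreases. The matching shares over all peaks were not computed, so this agreement is not shown to be particular to these genes. Library values of CC and CB did not overlap at 65 lower and 9 higher peaks in WT (24.1% and 25.1% of all peaks) and at 68 lower and 9 higher peaks in HET (25% and 26.6% of all peaks).

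**Figure D2:**
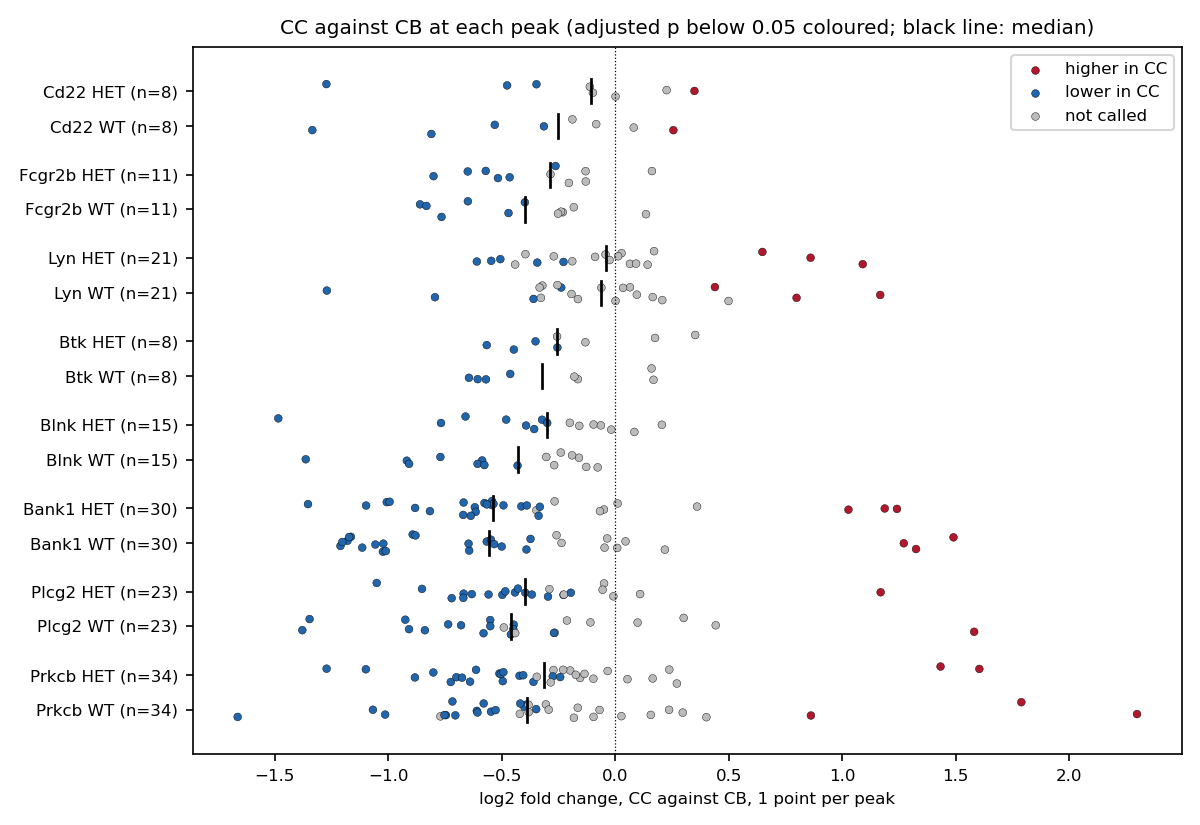
Log2 fold change of CC against CB (horizontal axis) at each of the 150 peaks, by gene and genotype, with 1 point per peak, blue for peaks lower in CC, red for peaks higher in CC and grey for peaks not called; the black line is the median of the gene's peaks. Most points lie left of 0 in both genotypes, with red points at Cd22, Lyn, Bank1, Plcg2 and Prkcb.

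Decreases were found at the 5′ ends, inside the genes and outside them. Of the 10 peaks within 1 kb of a 5′ end, 5 were lower in WT CC against WT CB and 0 higher, with changes from -0.75 to 0.01; inside the gene spans 50 of 102 were lower and 9 higher, and outside 21 of 38 were lower and 2 higher. In HET the counts were 5 and 0 of 10, 57 and 8 of 102, and 19 and 2 of 38. The 5 lower promoter peaks belonged to Plcg2, Prkcb and Fcgr2b in both genotypes, and those of Cd22, Blnk, Btk and Bank1 were not called. For Lyn no 5′ end was available, so its peaks 26 and 535 bases into the span were counted as inside the gene. By mean level, the 50 highest peaks (15.3 to 49.2 CPM) held 32 lower and 1 higher in WT. The 50 in the middle (7.91 to 14.99 CPM) held 30 lower and 4 higher, and the 50 lowest (1.84 to 7.78 CPM) 14 lower and 6 higher. Neither the split by place nor that by level was made over all peaks, so neither is shown to be particular to these genes.

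Cd22, the inhibitory sialic acid receptor, is on chromosome 7 (span 30865404 to 30880342, minus strand) and had 8 peaks, of which 4 were lower and 1 higher in WT CC than in WT CB, and 3 lower and 1 higher in HET. Its sum was 129.5, 107, 128 and 122 CPM in HET CC and 126, 119, 98.7 and 129.6 in WT CC. HET CB had 131, 122, 131.5 and 128 CPM, and WT CB had 140.3, 138, 137 and 137 CPM. The WT CC libraries lie below the WT CB libraries (log2 -0.22, SE 0.0625, edgeR quasi-likelihood adjusted p = 0.00254), whereas HET CC and HET CB overlap. The promoter peak (chr7:30878844-30879344) averaged 17 CPM in HET CC, 17.6 in WT CC, 16.9 in HET CB and 18.7 in WT CB and was not called (0.00 in HET, 95% interval -0.214 to 0.217; -0.08 in WT, -0.333 to 0.166). The strongest Cd22 peak lies at -8690 bases from the 5′ end (negative values are upstream; chr7:30887468-30887968) and stood at 51.9, 36.7, 44.2 and 38.5 CPM in HET CC and 43.6, 47.1, 34.7 and 56.1 in WT CC. In HET CB it had 34.2, 31.2, 36.2 and 31.9 CPM, and in WT CB 35.6, 39.1, 37.5 and 40.1 CPM. It was higher in CC, without overlap in HET (log2 0.35, SE 0.0854, edgeR quasi-likelihood adjusted p = 0.000398) and with overlap in WT (0.26, SE 0.0957, adjusted p = 0.0187). Without WT CC replicate 4 or WT CB replicate 1 the WT call was lost (adjusted p = 0.262 and 0.0517). The same call was lost with quantile normalized values (0.09, limma adjusted p = 0.419) and after thinning to the smallest library (0.21, edgeR quasi-likelihood adjusted p = 0.118).

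At the other end of Cd22, a peak 15506 bases downstream of the 5′ end and 1882 bases beyond the span (chr7:30863272-30863772) showed the largest decrease of the gene. The 5′ end nearest to this peak is that of Ffar1 and not of Cd22. The peak stood at 6.19, 4.62, 4.72 and 9.31 CPM in HET CC and 6.95, 4.71, 2.26 and 7.66 in WT CC. The HET CB libraries had 14.5, 14, 16.5 and 15.1 CPM, and the WT CB libraries 14.2, 15, 12.8 and 12.9 CPM. No CC library reaches a CB library (log2 -1.27, SE 0.16, adjusted p = 9.43e-10 in HET and -1.33, SE 0.202, adjusted p = 9.8e-08 in WT, edgeR quasi-likelihood test). The other Cd22 peaks called lower in WT lay at -9943 (-0.81), -2507 (-0.53) and -1302 bases (-0.31), and the first 2 of these were also lower in HET (-0.48 and -0.35). The strongest upstream peak was thus higher in CC, while the peaks at -9943 and -2507 bases were lower. The peak closest to the strongest one, at -8160 bases, was not called in either genotype.

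Fcgr2b, the inhibitory IgG receptor, is on chromosome 1 (span 170960558 to 170976071, minus strand), and 9 of its 11 peaks lie upstream of the span. In both genotypes 6 peaks were lower in CC than in CB and 0 higher, 5 of them shared. The sum was 136.6, 129.6, 117 and 127 CPM in HET CC and 114, 135.4, 102 and 122.5 in WT CC. Its HET CB values were 178.6, 165, 174 and 165 CPM, and its WT CB values 165, 167, 174 and 175.5 CPM, with no CC library as high as any CB library. The promoter peak (chr1:170975840-170976340), also the strongest, stood at 20.1, 21.6, 17.9 and 19.1 CPM in HET CC and 17.5, 21.8, 17.2 and 21.3 in WT CC. In CB the values were 29.1, 28.9, 28.6 and 26.9 CPM in HET CB and 25.9, 26.3, 27.6 and 27.9 CPM in WT CB. This is the promoter with the TTTCACTTCC match shown above, and it was lower in CC by -0.52 in HET (SE 0.0896, edgeR quasi-likelihood adjusted p = 1.74e-06) and -0.47 in WT (SE 0.106, adjusted p = 0.000147).

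The largest Fcgr2b decreases were upstream. At -17565 bases (chr1:170993386-170993886) the peak averaged 11.2 ± 2.5 CPM in HET CC and 10.6 ± 2.58 in WT CC. The level was 19.2 ± 0.646 CPM in HET CB and 18.9 ± 1.02 CPM in WT CB (SD, n = 4 each), with log2 changes of -0.80 in HET and -0.83 in WT (edgeR quasi-likelihood adjusted p = 1.25e-07 and 2.74e-06). At -8621 bases (chr1:170984442-170984942) it averaged 13.3 ± 0.858, 11.5 ± 1.68, 21 ± 1.24 and 21 ± 0.639 CPM in the same order (-0.65 in HET and -0.86 in WT, adjusted p = 3.76e-07 and 8.14e-08). Both peaks had CC libraries wholly below CB libraries. Peaks at -20832, -16715, -7185 and -5819 bases were not called in either genotype, so that along the upstream stretch lower peaks alternated with peaks that were not called. A peak inside the gene at 2891 bases was lower in HET alone (-0.57, adjusted p = 0.00504; 0.14 in WT, not called), a difference whose interaction was not called.

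Lyn, the kinase that acts in both activation and inhibition, is on chromosome 4 (span 3678068 to 3791612) and held calls in both directions, with 3 higher and 5 lower of 21 peaks in HET and 3 and 4 in WT. Its sum was 337, 321, 314 and 314.5 CPM in HET CC and 333, 314, 341 and 340.1 in WT CC. HET CB had 345.5, 351, 361 and 339 CPM, and WT CB had 364, 363, 367 and 361 CPM. Every CC library is below every CB library of its genotype (-0.12, SE 0.0374, adjusted p = 0.00617 in HET; -0.13, SE 0.0392, adjusted p = 0.00349 in WT, edgeR quasi-likelihood test). This small decrease is not kept by every scaling: with quantile normalized values (limma) the changes were 0.0033 in HET (adjusted p = 0.95) and -0.02 in WT (adjusted p = 0.66). Distances for Lyn are counted from the low-coordinate start of its span.

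The strongest Lyn peak, 535 bases into the span (chr4:3678353-3678853) and the highest of all 150, stood at 45.8, 46, 38.1 and 44.5 CPM in HET CC and 41.7, 41.8, 44.8 and 43 in WT CC. In HET CB it had 54.3, 55.5, 58.5 and 54 CPM, and in WT CB 55.7, 54.3, 54.9 and 55 CPM. It was lower in every CC library than in any CB library (-0.34 in HET and -0.36 in WT, edgeR quasi-likelihood adjusted p = 9.01e-06 and 4.14e-05). The adjoining peak, 26 bases into the span, averaged 36.2, 37.3, 38.3 and 38.9 CPM in HET CC, WT CC, HET CB and WT CB and was not called. Upstream of the start, the peak at -21950 bases was lower (-0.55 in HET, -0.79 in WT), and the strong pair at -29625 and -28930 bases was not called (0.03 and 0.07 in HET, 0.07 and 0.17 in WT).

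Inside Lyn, the peak 7269 bases into the span (chr4:3685087-3685587) was higher in CC. It stood at 6.88, 7.65, 7.74 and 7.61 CPM in HET CC and 8.06, 10.6, 8.17 and 10.95 in WT CC. The HET CB libraries had 3.33, 3.67, 3.86 and 3.17 CPM, and the WT CB libraries 3.22, 4.30, 4.24 and 5.05 CPM. The groups do not overlap between CC and CB (log2 1.09, SE 0.176, adjusted p = 4.11e-07 in HET; 1.17, SE 0.193, adjusted p = 6.92e-07 in WT, edgeR quasi-likelihood test). The weak peak at 37682 bases was also higher in both genotypes (0.65 and 0.80 in HET and WT), with overlapping libraries. The peak at 3745 bases was called higher in WT alone (0.44 in WT, 0.14 in HET) and the one at 34583 bases in HET alone (0.86 in HET, 0.50 in WT).

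Btk, the X-linked tyrosine kinase whose loss causes a B cell immunodeficiency in humans, had 8 peaks, all inside its span (chromosome X, 134542334 to 134583628, minus strand), with 4 lower and 0 higher in CC in each genotype, the same 4. Its sum was 93.1, 97.7, 101 and 107 CPM in HET CC and 90.1, 86.8, 94.6 and 88.5 in WT CC. Its HET CB values were 127, 121, 120.6 and 124 CPM, and its WT CB values 123, 119, 121 and 126 CPM. Every CC library is below every CB library (-0.30, SE 0.0494, adjusted p = 1.73e-06 in HET; -0.44, SE 0.0556, adjusted p = 9.56e-09 in WT, edgeR quasi-likelihood test). Among the CC libraries 3 of 4 HET values lie above all WT values, a difference that was not called (0.15, 95% interval 0.024 to 0.273, adjusted p = 0.142).

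Of the Btk peaks, the promoter peak (chrX:134582884-134583384) averaged 18.9, 18.1, 20.7 and 20.5 CPM in HET CC, WT CC, HET CB and WT CB and was not called. The 4 lower peaks lay 1485, 2391, 16384 and 18638 bases into the gene. The first of these (chrX:134581405-134581905) averaged 10.8 ± 3.02 CPM in HET CC and 10.1 ± 1.62 in WT CC. In CB the values were 15.9 ± 0.965 CPM in HET CB and 15.4 ± 0.871 CPM in WT CB (SD, n = 4 each; -0.57 in HET and -0.61 in WT, edgeR quasi-likelihood adjusted p = 0.000145 and 0.000714). At 18638 bases (chrX:134564252-134564752) the means were 15.3, 13.5, 19.6 and 20 CPM in the same order (-0.35 in HET and -0.57 in WT, adjusted p = 0.00349 and 0.000146). The strongest peak, at 16384 bases (chrX:134566506-134567006), changed least of the 4 (-0.25 in HET, adjusted p = 0.0298, and -0.46 in WT, adjusted p = 0.00131). Its HET call was lost without HET CC replicate 1, 2 or 4 (adjusted p = 0.14, 0.0691 and 0.0504) or HET CB replicate 1 or 4 (0.0568 and 0.0752). This HET call was also lost with quantile normalized values (limma adjusted p = 0.778) and after thinning (edgeR quasi-likelihood adjusted p = 0.202). It was lost with a filter of 5 CPM in 4 libraries (0.121) and a replicate block within genotype (0.0621). The WT call was lost with quantile normalized values (limma adjusted p = 0.0611). So were the HET calls at 18638 and 1485 bases (0.33 and 0.0537), the former also after thinning (edgeR 0.264). The 2 weak peaks farthest into the gene, at 28511 and 32083 bases, had positive values (0.16 to 0.35) and were not called. Libraries of 1 group also differed from each other at another X-linked locus. The non-coding gene Firre summed to 181, 77, 163 and 67.5 CPM in HET CC and 176, 168, 150 and 127 in WT CC. The level was 127, 81.7, 116 and 73.1 CPM in HET CB and 110.2, 74.5, 116 and 74.4 CPM in WT CB, while Xist ranged over 20.8 to 35.3, 27.9 to 43.9, 24.7 to 31.3 and 18 to 29.4 CPM; their part in the Btk values was not tested.

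Blnk, the scaffold that brings Btk and Plcg2 together, is on chromosome 19 (span 40928927 to 40994221, minus strand), and 8 of its 15 peaks were lower and 0 higher in CC in both genotypes, the same 8. Its sum was 239, 224, 231 and 236 CPM in HET CC and 213, 197, 229.6 and 235 in WT CC. HET CB had 279, 296, 277 and 289.8 CPM, and WT CB had 307, 289.9, 315 and 297 CPM. CC and CB do not overlap (-0.30, SE 0.044, adjusted p = 3.32e-07 in HET; -0.47, SE 0.0471, adjusted p = 5.97e-11 in WT, edgeR quasi-likelihood test). The promoter peak with the octamer (chr19:40993938-40994438), the strongest of the gene, stood at 32.3, 33.4, 36.4 and 36 CPM in HET CC and 32.5, 30, 37.5 and 43 in WT CC. In HET CB it had 34.7, 38.5, 34.3 and 36.6 CPM, and in WT CB 38.2, 38.2, 39.7 and 35.2 CPM. Its groups overlap, and it was not called (-0.06 in HET, 95% interval -0.22 to 0.093; -0.08 in WT, -0.256 to 0.102).

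Beside this promoter, 3 upstream peaks of Blnk were lower in CC. The peak at -2111 bases (chr19:40996082-40996582) stood at 30.1, 24.7, 28.7 and 25.5 CPM in HET CC and 24.7, 25, 20.6 and 24.6 in WT CC. The HET CB libraries had 34, 35.5, 35.8 and 33.4 CPM, and the WT CB libraries 36.9, 33.8, 37.8 and 36 CPM. No CC value reaches a CB value (-0.36, SE 0.0802, adjusted p = 0.000131 in HET; -0.61, SE 0.0961, adjusted p = 2.77e-07 in WT, edgeR quasi-likelihood test). The peaks at -1560 and -4852 bases were lower by similar amounts (-0.32 and -0.30 in HET, -0.43 and -0.58 in WT). Inside the gene the largest decrease was 27310 bases from the 5′ end (chr19:40966661-40967161), where the peak stood at 1.72, 4.75, 3.40 and 4.19 CPM in HET CC and 3.34, 3.53, 3.38 and 4.65 in WT CC. Its HET CB values were 9.91, 10.2, 9.75 and 10.5 CPM, and its WT CB values 9.54, 10.9, 9.68 and 8.37 CPM (-1.49 in HET and -1.36 in WT, adjusted p = 3.29e-10 and 3.44e-07). The CC values there are less than those of every CB library. Peaks at 16060, 23823 and 31085 bases, with group means of 18.5 to 25 CPM in CB, were not called in either genotype.

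Bank1, a scaffold adaptor largely restricted to B cells, is on chromosome 3 (span 136053363 to 136326141, minus strand) and had the largest share of called peaks: of 30 peaks, 20 were lower and 3 higher in WT, and 21 lower and 3 higher in HET. Its sum was 308, 320.4, 325 and 318 CPM in HET CC and 303, 311, 293 and 319 in WT CC. In CB the values were 455, 418, 454.5 and 424 CPM in HET CB and 419, 454, 421 and 471 CPM in WT CB, with no overlap between CC and CB. Its promoter peak (chr3:136325791-136326291), the strongest of the gene, stood at 35.6, 42, 46.4 and 38.3 CPM in HET CC and 37.5, 49.5, 35 and 38.9 in WT CC. The level was 43, 40.1, 40.8 and 37.2 CPM in HET CB and 35.1, 41.1, 37 and 46.4 CPM in WT CB. It was level across the groups, with a change of 0.01 in both genotypes (95% interval -0.157 to 0.179 in HET and -0.185 to 0.202 in WT).

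Around the level Bank1 promoter the flanking peaks went in opposite directions. At -5180 bases (chr3:136330996-136331496) the peak stood at 13.6, 14, 13 and 14.9 CPM in HET CC and 12.5, 17.4, 18.3 and 15.1 in WT CC. HET CB had 6.09, 5.29, 6.07 and 6.07 CPM, and WT CB had 6.26, 7.62, 6.40 and 5.91 CPM. CC was higher without overlap (1.24, SE 0.134, adjusted p = 1.34e-11 in HET; 1.27, SE 0.151, adjusted p = 2.2e-10 in WT, edgeR quasi-likelihood test). Farther upstream, peaks at -16007, -20610, -21520 and -23792 bases were lower in both genotypes (-0.64, -0.99, -0.33 and -0.67 in HET; -1.17, -1.20, -0.39 and -1.01 in WT). Near the 3′ end, 3 neighbouring peaks at 238846, 239430 and 240021 bases were lower by -0.88 to -1.35 in HET and -1.02 to -1.17 in WT; the first (chr3:136086970-136087470) stood at 7.22, 6.86, 6.23 and 8.85 CPM in HET CC and 11.1, 8.54, 9.02 and 8.76 in WT CC. In HET CB it had 19.3, 18.5, 18.9 and 18.3 CPM, and in WT CB 18.6, 20.8, 17 and 19.9 CPM (-1.35 in HET, adjusted p = 1.23e-13). Its CC libraries all lie below its CB libraries.

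Plcg2, the phospholipase that releases calcium, is on chromosome 8 (span 117498275 to 117635142, plus strand), and 14 of its 23 peaks were lower and 1 higher in WT, and 16 lower and 1 higher in HET. Its sum was 320.4, 316.5, 285 and 326 CPM in HET CC and 294, 285.5, 272.5 and 309.5 in WT CC. The HET CB libraries had 407, 408, 421 and 415 CPM, and the WT CB libraries 391, 409.5, 409 and 417 CPM, without overlap of CC and CB. The peak over the 5′ end (chr8:117498024-117498524) averaged 34.6 ± 5.65 CPM in HET CC and 31.2 ± 6.23 in WT CC. Its HET CB values were 40.5 ± 2.21 CPM, and its WT CB values 37.6 ± 2.59 CPM (SD, n = 4 each); its decreases were small and its libraries overlap (-0.23 in HET and -0.27 in WT, edgeR quasi-likelihood adjusted p = 0.0203 and 0.0211). Without HET CC replicate 2 or 3 or HET CB replicate 3 the HET call was lost (adjusted p = 0.122, 0.116 and 0.0786), as was the WT call without WT CC replicate 3 or WT CB replicate 4 (0.292 and 0.0666). The adjoining and strongest peak, 518 bases in, was lower without overlap (-0.40 in HET and -0.46 in WT, adjusted p = 1.15e-05 and 1.51e-05).

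The largest Plcg2 decreases formed a pair far upstream. At -18039 bases (chr8:117479986-117480486) the peak stood at 13.1, 12.3, 13 and 12.7 CPM in HET CC and 9.17, 8.83, 6.20 and 12.6 in WT CC. In CB the values were 25, 26.9, 27.9 and 25.9 CPM in HET CB and 23.2, 22.8, 25.5 and 24.5 CPM in WT CB (-1.05 in HET and -1.38 in WT, edgeR quasi-likelihood adjusted p = 1.42e-12 and 1.23e-12). At -17285 bases (chr8:117480740-117481240) it stood at 14.1, 15.3, 12.3 and 14 CPM in HET CC and 9.17, 10.3, 8.74 and 11.2 in WT CC. The level was 26.1, 25.8, 26 and 23.3 CPM in HET CB and 24.7, 24, 25.6 and 26.1 CPM in WT CB (-0.85 in HET and -1.35 in WT, adjusted p = 1.36e-10 and 3.52e-13). At this second peak each HET CC library is above each WT CC library, by a change that was not called (0.51, 95% interval 0.192 to 0.822, adjusted p = 0.0692). The remaining peak of this upstream group, at -16247 bases, was not called in CC against CB in either genotype (-0.01 in HET, -0.27 in WT).

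Prkcb, the protein kinase C isoform that carries the signal to NF-kB, is on chromosome 7 (span 122289104 to 122634402, plus strand) and had the most peaks, 34, of which 16 were lower and 3 higher in WT, and 18 lower and 2 higher in HET. Its sum was 337, 345.4, 322.5 and 328 CPM in HET CC and 323, 320.5, 343 and 362 in WT CC. HET CB had 442, 453, 426.5 and 454 CPM, and WT CB had 432.5, 438.5, 446 and 436 CPM, without overlap of CC and CB (-0.41 in HET and -0.38 in WT, SE 0.0384 and 0.0403). The promoter peak with the octamer (chr7:122288778-122289278), the strongest of the gene, stood at 30.8, 31.1, 26.2 and 29.5 CPM in HET CC and 28.6, 18.8, 24.5 and 32.6 in WT CC. In HET CB it had 36.2, 34.1, 32 and 37.5 CPM, and in WT CB 33.5, 35.2, 31.5 and 33.5 CPM. It was lower in CC (-0.24 in HET and -0.35 in WT, edgeR quasi-likelihood adjusted p = 0.0133 and 0.00318), with overlap in WT, and without WT CC replicate 2 the WT change was -0.22 (adjusted p = 0.074); without HET CC replicate 3 or HET CB replicate 4 the HET adjusted p was 0.0583 and 0.0552. After thinning to the smallest library neither promoter call was kept (edgeR quasi-likelihood adjusted p = 0.187 in HET and 0.0812 in WT). The HET call was also lost with quantile normalized values (limma adjusted p = 0.123) and with a filter of 5 CPM in 4 libraries (edgeR quasi-likelihood adjusted p = 0.0843). The next 2 peaks, 452 and 1138 bases in, were lower by more (-0.72 and -0.64 in HET, -0.75 and -0.75 in WT).

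The largest decrease among the 150 peaks in WT lay 6446 bases into Prkcb (chr7:122295321-122295821). The peak stood at 4.13, 6.60, 2.27 and 4.50 CPM in HET CC and 3.34, 2.65, 3.10 and 3.28 in WT CC. The HET CB libraries had 10.9, 11.3, 9.93 and 11.7 CPM, and the WT CB libraries 9.99, 9.47, 10 and 9.84 CPM. All CC libraries lie below all CB libraries (-1.27, SE 0.167, adjusted p = 3.31e-09 in HET; -1.66, SE 0.228, adjusted p = 8.97e-09 in WT, edgeR quasi-likelihood test). Further decreases in both genotypes lay at 7399, 20965, 21698, 63722, 100024, 100549, 101168 and 106995 bases from the 5′ end. The 3 farthest peaks, from 205138 to 344187 bases, were weak, with group means of 1.2 to 2.50 CPM, and of these the first was lower in WT (-1.01) and no other call was made.

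**Figure D3:**
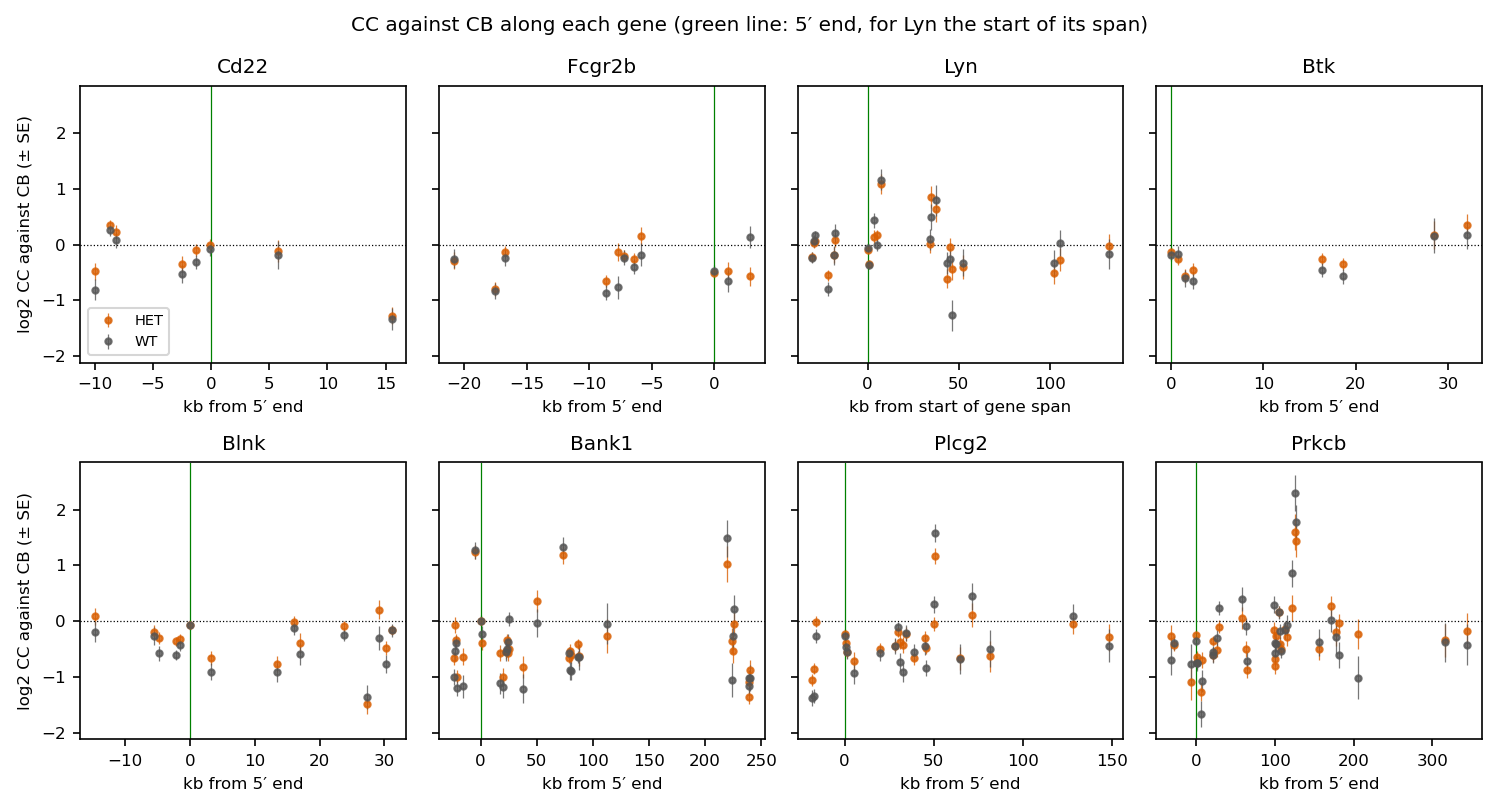
Log2 fold change of CC against CB with its SE (vertical axis) at each peak against its distance in kb from the 5′ end (green line; for Lyn the low-coordinate start of its span), 1 panel per gene, HET in orange and WT in grey. Values near 0 stand at the promoters of Cd22, Btk, Blnk and Bank1. Positive values stand 50430 bases into Plcg2, 73079 and 219436 bases into Bank1, and at the neighbouring peaks 125200 and 126424 bases into Prkcb.

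The 9 peaks higher in CC in both genotypes were chosen for description after their values were seen. They comprise the Cd22, Lyn and -5180 base Bank1 peaks given above, 1 in Plcg2, 2 more in Bank1 and 2 in Prkcb. The Plcg2 peak, 50430 bases into the gene (chr8:117548455-117548955), stood at 14.1, 12.5, 10.95 and 11.3 CPM in HET CC and 11.95, 17.4, 19.2 and 15.3 in WT CC. Its HET CB values were 4.81, 5.41, 5.61 and 5.87 CPM, and its WT CB values 5.60, 4.24, 5.89 and 5.46 CPM (1.17 in HET and 1.58 in WT, edgeR quasi-likelihood adjusted p = 8.36e-10 and 2.38e-12). Every CC library is above every CB library there, although the gene as a whole was lower in CC. The Bank1 peak 73079 bases into the gene (chr3:136252737-136253237) averaged 10.1 ± 2.85 CPM in HET CC and 12.4 ± 2.09 in WT CC. In CB the values were 4.46 ± 0.786 CPM in HET CB and 4.94 ± 0.285 CPM in WT CB (SD, n = 4 each; 1.19 in HET and 1.33 in WT). A weaker Bank1 peak at 219436 bases averaged 1.89, 3.40, 0.915 and 1.20 CPM in HET CC, WT CC, HET CB and WT CB (1.03 in HET and 1.49 in WT). Neither Bank1 peak had overlapping CC and CB libraries.

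The largest increases were in Prkcb. The peak 125200 bases into the gene (chr7:122414075-122414575) stood at 3.44, 1.58, 6.80 and 2.02 CPM in HET CC and 6.11, 6.18, 4.79 and 7.11 in WT CC. The level was 1.13, 1.12, 0.728 and 1.36 CPM in HET CB and 0.819, 1.07, 1.32 and 1.69 CPM in WT CB. The change was 1.60 in HET (SE 0.322, edgeR quasi-likelihood adjusted p = 2.33e-05) and 2.30 in WT (SE 0.324, adjusted p = 1.88e-08), and the 4 HET CC libraries spread more widely than the 4 WT CC libraries. The neighbouring peak at 126424 bases (chr7:122415299-122415799) averaged 3.20 ± 0.708, 4.22 ± 0.954, 1.20 ± 0.113 and 1.22 ± 0.213 CPM in HET CC, WT CC, HET CB and WT CB (SD, n = 4 each; 1.43 in HET and 1.79 in WT). At 121016 bases another peak was called higher in WT alone (0.86 in WT, adjusted p = 0.00195; 0.24 in HET, adjusted p = 0.376), and the interaction was not called there.

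**Figure D4:**
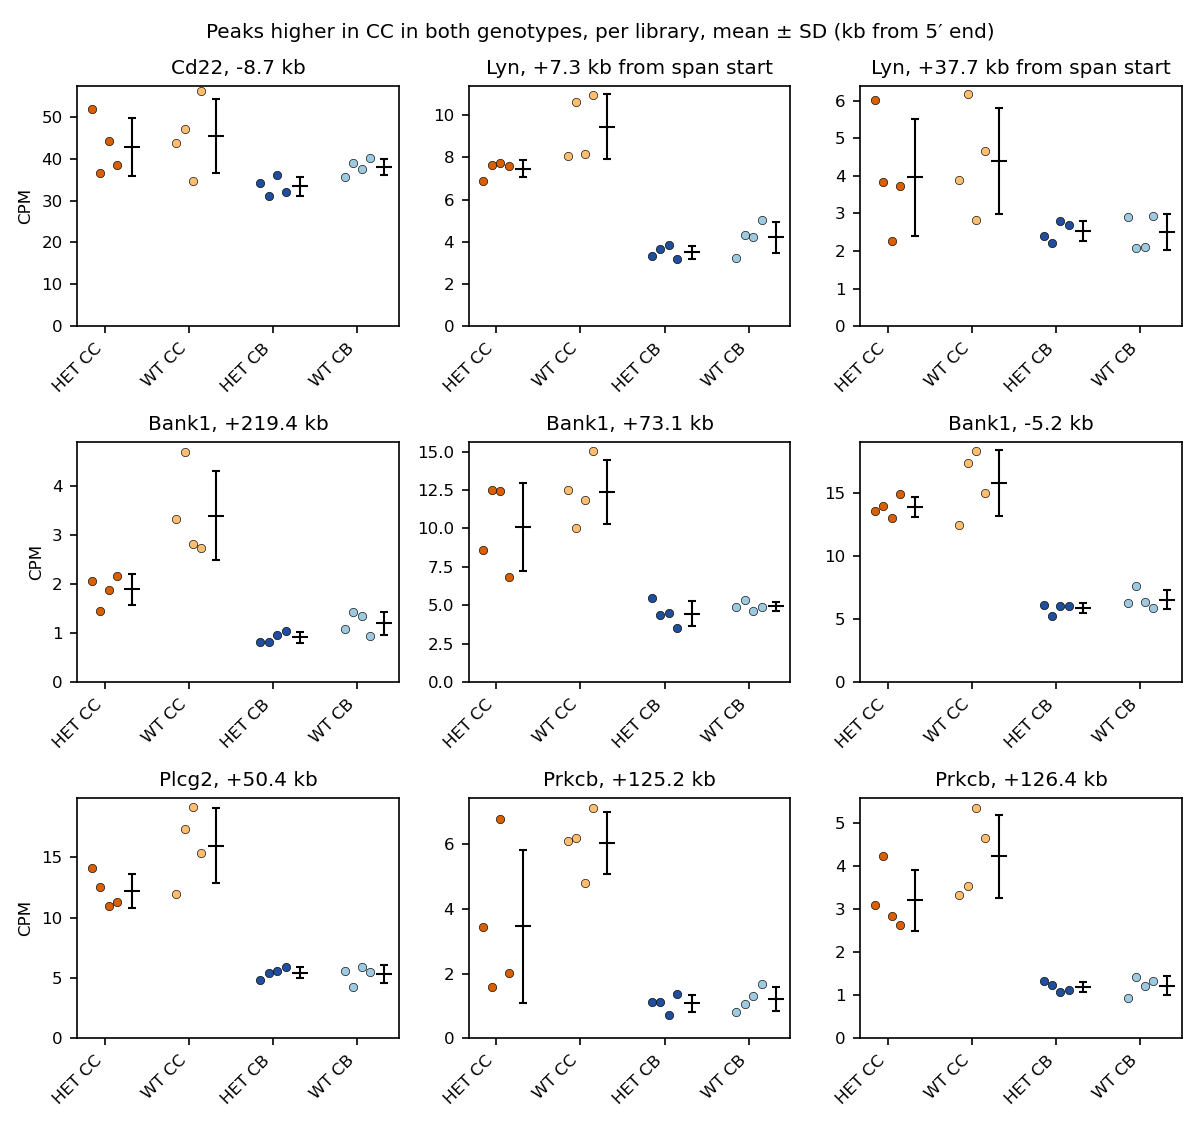
Accessibility (CPM, vertical axes from 0) in each library of HET CC, WT CC, HET CB and WT CB at the 9 peaks that were higher in CC in both genotypes, with black bars for the mean ± SD of 4 libraries. CC and CB libraries are apart at 7 of the 9 peaks in both genotypes, and they overlap in WT at the Cd22 peak and in both genotypes at the Lyn peak 37682 bases into the span.

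HET against WT, the comparison that addresses the loss of 1 Smarca4 copy, gave almost no calls at these genes. In CC, 1 of 150 peaks was called by edgeR, lower in HET, against 2.06% of all peaks called in either direction and 0.979% lower. DESeq2 called 3 there, 1 higher and 2 lower, but its share over all peaks was not computed. An unadjusted edgeR p below 0.05 was found at 19 of the 150 and at 17.2% of all peaks. In CB, 0 of 150 were called by edgeR and 0 by DESeq2, against 0.129% of all peaks, and 7 had an unadjusted p below 0.05 (7.9% of all peaks). The interaction, the difference between the HET effects in CC and in CB, was called at 0 of 150 peaks by edgeR, against 0.159% of all peaks, and at 0 of the 135 for which DESeq2 gave an adjusted p. An unadjusted p below 0.05 was found at 9 (11.4% of all peaks). By edgeR the share of the 150 peaks lies below that of all peaks in all 3 comparisons, on both counts, but the differences were not tested. With 0 or 1 peak called per comparison, the called shares of the 150 peaks cannot be told from those of all peaks. The changes of HET against WT ran from -0.87 to 0.79 in CC (median SE 0.189) and from -0.39 to 0.25 in CB (median SE 0.0952), so the CC estimates are the less precise.

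The called peak lies 25113 bases into Bank1 (chr3:136300703-136301203). It stood at 16.7, 13.5, 14.4 and 11.3 CPM in HET CC and 24.7, 20.9, 21.1 and 16.4 in WT CC. HET CB had 21, 18, 21.5 and 17.7 CPM, and WT CB had 18.8, 21.3, 18.5 and 22 CPM. HET CC is the only low group, and its highest library overlaps the lowest WT CC library (log2 -0.58, SE 0.15, edgeR quasi-likelihood adjusted p = 0.0281). In CC against CB it was lower in HET (-0.49, adjusted p = 0.00025) and not called in WT (0.05, adjusted p = 0.774), and the interaction was not called (-0.54, 95% interval -0.882 to -0.194, adjusted p = 0.166). The genotype call was lost without HET CC replicate 2 or 4 (adjusted p = 0.0842 and 0.114) and without WT CC replicate 1, 2 or 3 (0.104, 0.0634 and 0.0515).

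**Figure D5:**
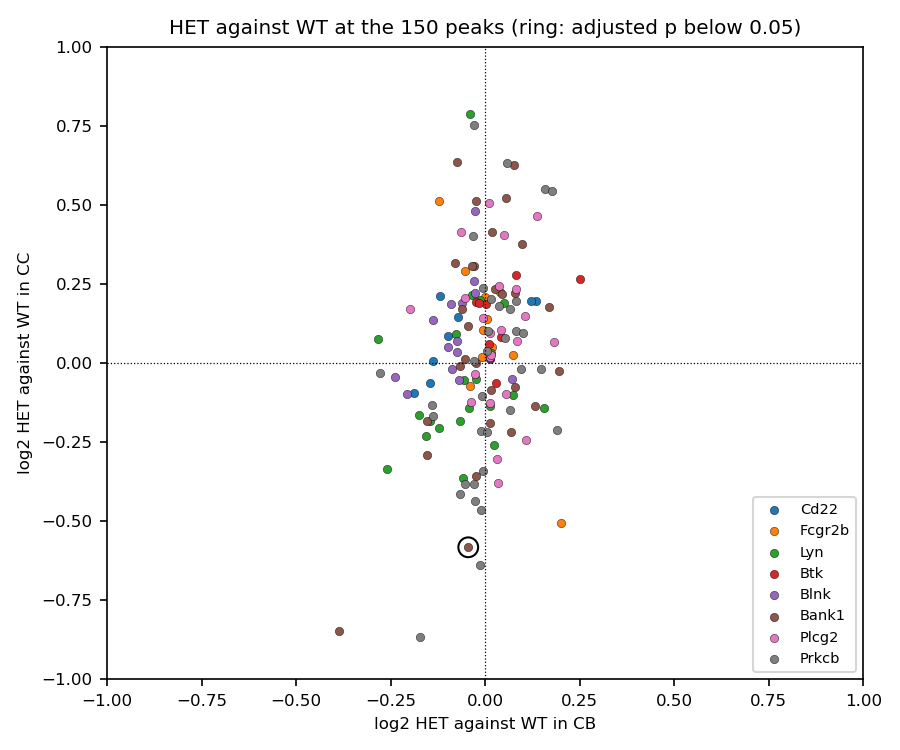
Log2 fold change of HET against WT in CC (vertical axis) against that in CB (horizontal axis) at the 150 peaks, coloured by gene, with a ring around the 1 peak called, in Bank1. The points spread from -0.87 to 0.79 in CC and from -0.39 to 0.25 in CB and lie on both sides of 0.

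By gene sums, 0 of the 8 genes were called for HET against WT in CC by edgeR and 0 by DESeq2 (6.66% of all gene sums were called by edgeR), with changes from -0.05 at Lyn to 0.15 at Btk; Btk and Plcg2 had an unadjusted p below 0.05 (0.0207 and 0.0279), as had 22.1% of all gene sums. In CB 0 were called (0.551% of all gene sums), with changes from -0.11 at Cd22 to 0.02 at Plcg2, and Cd22 and Blnk had an unadjusted p below 0.05 (0.039 and 0.0466), as had 9.76% of all gene sums. The 4 HET CB libraries of Cd22 lie below its 4 WT CB libraries (95% interval -0.209 to -0.006, adjusted p = 0.47), an arrangement found at 5.96% of all genes. The interaction was called at 0 of the 8 genes (0.411% of all), and Blnk, with the smallest p, had 0.17 (95% interval 0.04 to 0.301, unadjusted p = 0.0121, adjusted p = 0.237). The decrease in CC had the smaller estimate in HET at 7 of the 8 genes and at Prkcb the larger (-0.41 in HET, -0.38 in WT), but in no gene was that difference called.

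Per peak, which makes genes with different numbers of 501 bp peaks comparable, the level in WT CC was 15.3 ± 0.478 CPM at Lyn, 14.3 ± 1.72 at Cd22, 14.1 ± 1.02 at Blnk, 12.2 ± 0.665 at Plcg2, 10.9 ± 0.336 at Btk, 10.4 ± 1.31 at Fcgr2b, 9.88 ± 0.389 at Bank1 and 9.59 ± 0.505 at Prkcb (SD, n = 4 each). In WT CB it was 18.7 ± 0.647 CPM at Blnk, 16.4 ± 0.46 at Plcg2, 16.1 ± 0.0697 at Lyn, 16 ± 0.188 at Cd22, 14.4 ± 0.438 at Fcgr2b, 14.2 ± 0.386 at Btk, 13.7 ± 0.816 at Bank1 and 12 ± 0.125 at Prkcb. Blnk thus led in WT CB, above every library of the other genes, while in WT CC it could not be told from Lyn and Cd22 within their spread. Plcg2, Lyn and Cd22 were within their spread of each other in WT CB, as were Fcgr2b, Btk and Bank1, and Prkcb had the lowest mean in both populations, below every library of the other genes in WT CB but overlapping Bank1 and Fcgr2b in WT CC. In HET CC the levels ran from 14.8 at Blnk, 14.6 at Lyn and 14.5 at Cd22 to 9.37 at Prkcb, and in HET CB from 17.8 at Blnk and 16.8 at Plcg2 to 12.2 at Prkcb.

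Among other genes of the pathway, calls went both ways. Of 86 listed genes 81 had a peak; in WT 24 rose and 31 fell in CC against CB, with a median log2 change of -0.005, and in HET 23 were higher and 34 lower, with a median of -0.027. Among all gene sums 31.6% were higher and 31.7% lower in WT, and 31.1% and 31.7% in HET, against which the counts of single lists below are also to be read. Of the receptor's signaling chains, Cd79a was not called (0.07 in HET, 0.06 in WT), and Cd79b was lower in HET (-0.17, edgeR quasi-likelihood adjusted p = 0.026) and not called in WT (-0.13, adjusted p = 0.129). Syk, the kinase that follows Lyn, was not called (0.04 in both).

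Among adaptors and exchange factors 7 of 12 were lower and 1 higher in WT, and 8 and 1 in HET. Rasgrp3, which activates Ras downstream of Plcg2, was 407, 431, 407 and 420.1 CPM in HET CC and 341, 356, 356.5 and 394 in WT CC. In HET CB it had 596, 592, 611 and 582 CPM, and in WT CB 558, 621, 589 and 631 CPM (-0.73 in WT, edgeR quasi-likelihood adjusted p = 2.71e-17). Among 8 listed kinases 2 were higher and 3 lower in WT, and 3 and 3 in HET. Of these, Prkca, a protein kinase C isoform related to Prkcb, was lower (-0.63 in HET and -0.72 in WT, adjusted p = 3.78e-16 and 3.19e-17). In the PI3K branch Akt1 was lower (-0.72 in HET, adjusted p = 6.26e-14), whereas Pik3r5, a regulatory subunit of PI3K gamma, was higher (0.93 in HET and 1.26 in WT, adjusted p = 4.92e-14 and 7.4e-17). Among 17 genes listed under inhibitors, a list that also held Ptprc and Fcrl1, 6 were higher and 6 lower in HET and 5 and 6 in WT. Of these, Sla2, an adaptor that dampens antigen receptor signaling, was higher by 2.11 in HET and 2.19 in WT (edgeR quasi-likelihood adjusted p = 6.58e-15 and 7.59e-15). The early target genes of the receptor (Nr4a1, Nr4a2, Nr4a3, Egr1 and Egr3) had 4 higher and 0 lower of 5 in each genotype.

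For HET against WT, 6 of the 81 other pathway genes were called in CC, 2 higher and 4 lower (3.24% and 3.42% of all gene sums), 1 in CB (0.551%), and 1 for the interaction (0.411%). Cd81, a tetraspanin of the coreceptor, was 144, 151, 128 and 156 CPM in HET CC and 113, 122, 118 and 116 in WT CC. The HET CB libraries had 194, 197.5, 186 and 195 CPM, and the WT CB libraries 189, 197, 193 and 189 CPM. Its HET CC libraries are above its WT CC libraries, as at 3.26% of all genes (0.31, SE 0.0579, edgeR quasi-likelihood adjusted p = 0.00172), and the interaction was called (0.30, adjusted p = 0.0456). The interaction call was lost in 19 of 28 alternatives, 14 of them leaving out 1 library, with adjusted p from 0.0018 to 0.532 over all 28. With peaks within 1 kb of the gene, the Cd81 change in CC was 0.27 and not called (adjusted p = 0.118). Rasgrp3 was also higher in HET CC (0.20, adjusted p = 0.00591), while Cblb, a ubiquitin ligase that ends receptor signaling, and Pik3r5 were lower (-0.17, adjusted p = 0.0109, and -0.33, adjusted p = 0.0133). The Cblb call was lost without WT CC replicate 2 (adjusted p = 0.0595), and that of Pik3r5 without HET CC replicate 4 or WT CC replicate 4 (0.072 and 0.0594) and with peaks assigned to the nearest 5′ end (0.0593). In CB the 1 call was Fgr, an Src family kinase (-0.19, adjusted p = 0.0467), and it was lost in 14 of 28 alternatives, among them leaving out any 1 CB library (adjusted p from 0.0027 to 0.85 over all 28).

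Marker loci of other cell types also differed between CC and CB. Of 12 listed T cell markers 10 had a peak, and 8 rose and 2 fell in WT CC against WT CB (8 and 1 in HET); their summed level was 391 to 465 CPM in HET CC, 442.5 to 559.9 in WT CC, 275 to 286 in HET CB and 284 to 289 in WT CB. Of the NK cell markers 4 of 8 were higher and 1 lower in WT (5 and 1 in HET), with sums of 302 to 309, 313 to 359, 266 to 271 and 265 to 273 CPM in the same order. Of 14 listed myeloid markers 10 had a peak, 7 higher and 3 lower in WT (7 and 1 in HET), with sums of 503 to 562, 492 to 521, 386 to 397 and 391 to 422 CPM, and of 6 stromal and follicular dendritic cell markers with a peak 4 were higher in both genotypes, with sums of 229 to 250.1, 253 to 304, 170 to 189 and 178 to 194.5 CPM. Of 8 B cell identity genes 5 were lower and 0 higher in WT (6 and 1 in HET), with sums of 1404 to 1452, 1412 to 1576, 1710 to 1733 and 1767 to 1889 CPM. Of 8 germinal center genes 7 were lower in WT CC against WT CB (7 lower and 1 higher in HET), with sums of 945 to 1174, 791 to 931, 1480 to 1510 and 1490 to 1538 CPM, and 5 were higher in HET CC than in WT CC. Of 6 genes with a peak that were listed for naive follicular B cells, 4 were higher, Zbtb16 among them, and 1 lower in WT (5 and 1 in HET). Their sums were 1529 to 1663, 1684 to 1760, 1517 to 1564 and 1577 to 1597 CPM. Plasma cell genes had 2 higher and 4 lower of 6 in WT and 1 and 4 in HET, and erythroid and megakaryocyte genes 0 higher and 2 lower of 4 in both. No marker was at 0 in any group, and the part of these differences in the changes of the 8 genes was not tested.

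The genes whose sums followed each of the 8 most closely over the 16 libraries were, by Pearson r of log2 CPM among 6385 candidates with at least 3 peaks and a mean above the median gene, Tmem158 for Bank1 (0.992), Mnd1 and Pakap for Plcg2 (0.991 and 0.988), and Gemin6 and Ablim1 for Prkcb (0.985 and 0.981). Btk was followed by Clspn and Senp1 (0.983 both), Blnk by Lrch1 and Arl3 (0.979 and 0.973), and Fcgr2b by Plek2 and Fcrla (0.979 and 0.975). For Lyn they were Pax5 and Abi1 (0.943 and 0.929), and for Cd22 E2f2 and Setd2 (0.88 and 0.878). The libraries form a CC and a CB set of different depth, which all these correlations share, and Arl3, Fcrla and Pax5 stand on the same chromosome as the gene they follow.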

How the data were processed

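Omni-ATAC accessibility was measured in 16 libraries, 4 each of HET CC, WT CC, HET CB and WT CB, grouped by the genotype label and the sample title. The deposited values are raw counts of the authors for 82188 peaks, 1 set for every library. FastQC, BWA, deepTools, R 4.2.1 and mm10 are named in the submitters' processing notes; the sources used here give neither the peak caller nor the counting step. The 8 genes, the pathway and marker lists and the motifs were chosen with earlier results of these data known.

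Of the peaks, 74773 (91%) were assigned to the nearest protein-coding gene span (RefSeq, GRCm38.p6), at most 50 kb from the peak middle, and summed per gene (15075 genes). A peak may act on a gene other than the nearest. Peaks and gene sums were fitted with edgeR 4.0.16 in R 4.3.3 by the robust quasi-likelihood test, with TMM factors, all 16 libraries and 1 coefficient per group. The filterByExpr filter left out 0 peaks and 0 genes. P-values were adjusted by Benjamini-Hochberg over all peaks, or over all genes for the sums, and calls were made below 0.05. The fit was tested on simulated data. Intervals cover 95%, and the depth of a peak covers counting error only, since PCR copies are not independent molecules.

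The peaks named with values are, per gene, that nearest the 5′ end, that with the highest mean, and that with the smallest p in each comparison where it passes. Other pathway genes are named as the 2 with the smallest p in each direction per comparison, plus Cd79a, Cd79b and Syk; some items that these rules select are not reported here. Alternatives covered scaling, filters, DESeq2 1.42.0, limma 3.58.1, thinning to the smallest library, replicate blocks, peak assignment and leaving out each library. Sequences came from the RefSeq promoter table, which held 7 of the 8 genes, and bases inside a gene span were left out.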

Additional observations from a re-analysis of the deposited data

Results flagged for a closer look

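Among 184 groups of 4 libraries checked, 11 held a library set apart from the other 3 by more than Dixon's 95% critical value, and chance flags about 1 group in 20. In the CC libraries, WT CC replicate 3 was low at the Blnk peak 2111 bases upstream (20.6 CPM, against 24.6 to 25 in the others), and WT CC replicate 4 was high at the Blnk peak 27310 bases into the gene (4.65 CPM, others 3.33 to 3.53). WT CC replicate 1 was low at the strongest Btk peak (10.3 CPM, others 18 to 18.9), and WT CC replicate 4 was high at the Lyn peak upstream of the span start (18.1 CPM, others 12.7 to 13.5). HET CC replicate 1 was low at the Lyn peak 7269 bases into the span (6.88 CPM, others 7.61 to 7.74). In the CB libraries, HET CB replicate 3 was high at the strongest Plcg2 peak (47.1 CPM, others 42.8 to 43.4) and HET CB replicate 4 low at the upstream Plcg2 peak at -17285 bases (23.3 CPM, others 25.8 to 26.1). HET CB replicate 2 was low at the Bank1 peak at -5180 bases (5.29 CPM, others 6.07 to 6.09), and HET CB replicate 1 was high at the Fcgr2b peak at -8621 bases (22.8 CPM, others 20.1 to 20.5). Of the other pathway genes, WT CC replicate 4 stood apart at Cd79a (93.3 CPM, others 69.9 to 73.1) and at Syk (410 CPM, others 336 to 348). WT CC replicate 4 accounts for 4 of the 11.

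Cd81 was flagged because its HET effect differed between the populations, by an interaction of 0.30 on the log2 scale (edgeR quasi-likelihood test, adjusted p = 0.0456), with HET above WT in 4 of 4 CC libraries. This call was lost in 19 of 28 alternatives, among them the shared replicate block, quantile normalization, thinning and narrower windows around the gene.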

How the results depend on the processing

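Over 29 alternatives, 4196 of 4433 single values of the 8 genes and their 26 named peaks kept their direction and their side of the threshold, 182 not called in either fit changed sign, 46 lost and 8 gained a call, and 1 reversed: Lyn in HET CC against HET CB, 0.0033 with quantile normalized values (limma). Called member peaks in HET CC against HET CB numbered 91 (82 to 93 leaving out 1 library). They were 60 with quantile normalization and 59 after thinning to the smallest library. In WT CC against WT CB they numbered 87 (79 to 87 leaving out 1 library), with 75 after thinning and 93 with DESeq2. With only the peaks within 1 kb of the gene, a smaller set of member peaks, 64 were called. In HET CC against WT CC the 1 member peak became 4 with quantile normalization, 3 with DESeq2 and 0 both with only the compared groups and after thinning (0 to 3 leaving out 1 library), and the 0 gene sums became 2 with quantile normalization (0 to 1). Of the other pathway genes, the 6 calls in HET CC against WT CC became 10 with quantile normalization and 12 with DESeq2 (3 to 13 leaving out 1 library, most without HET CC replicate 3 and fewest without HET CC replicate 4). Their 1 call in HET CB against WT CB became 2 with DESeq2 size factors, 2 with a filter of 5 CPM in 4 libraries, 4 with the DESeq2 test, 6 with only the compared groups, and 0 with total counts, quantile normalization, thinning or the shared replicate block (0 to 3). Their 1 interaction call became 3 with DESeq2 and 0 with quantile normalization, thinning, the shared replicate block, or peaks within 10 kb or 1 kb of the gene (0 to 2). By the nearest 5′ end, 84 of the 150 peaks kept their gene and Lyn had none. The causes of these changes were not tested, and the fit with only the compared groups was not run for the interaction. Shares of calls over all peaks or all genes were not computed for the alternatives.

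No correlation between the deviations of same-numbered libraries rose to the 0.1 mark, and the numbers were not taken as pairs. The correlations were 0.041 to 0.045 between WT CC and WT CB, where 4 of 4 matched best with their own number. They were 0.032 to 0.073 in HET, where 2 did, and -0.14 to -0.113 between HET CB and WT CB. At Firre and Xist, however, replicates 1 and 3 lay above replicates 2 and 4 in HET CC, HET CB and WT CB, but not in WT CC. Whether same-numbered libraries share an animal or a batch was not tested. With a replicate block, member peaks called were 86 (85 within genotype) in WT and 86 (85) in HET. Genotype changes at member peaks had a median SE of 0.189 in CC and 0.0952 in CB, which limits the size of change that could be told from 0.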
